A study of Mus musculus with 4 samples.

Results

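The 10 genes described here encode the coreceptors, adaptors and kinases that stand directly around the Toll-like receptors. They are the coreceptors Cd14 and Ly96, the adaptors Myd88, Tirap, Ticam1 and Ticam2, and the interleukin-1 receptor-associated kinases Irak4, Irak1, Irak2 and Irak3. They were taken by gene symbol from a table of 51826 gene models, and each of the 10 symbols matched 1 model, which also passed the filter on low counts. The table holds 4 RNA-seq libraries of primary microglia from C57BL/6 mice, 2 treated with lysophosphatidylserine (LysoPS) for 4 h and 2 mock libraries that the labels also call untreated. In the descriptions and column headers, the codes of all 4 libraries begin with WT. LysoPS is a phospholipid with a single fatty acid chain and a known ligand of GPR34, the receptor named in the study's title, and the labels give neither its dose nor a vehicle. The cells of both groups were grown for 2 weeks from brains of newborn mice whose meninges had been removed, and microglia were then shaken off the culture. The labels do not say that replicates are separate cultures or animals, and p-values therefore measure only the spread between these libraries, which may be technical.

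Toll-like receptors recognise microbial and damage-derived molecules at the surface and in the endosomes of microglia and other macrophages. On binding a ligand they gather adaptors that carry a TIR domain. MyD88, with TIRAP as its bridge, recruits IRAK4, IRAK1 and IRAK2 into a complex that activates NF-kappaB and MAP kinases, and interleukin-1 receptors use the same complex. TRIF, encoded by Ticam1 and bridged to TLR4 by the Ticam2 product TRAM, leads towards interferon regulatory factors, while IRAK-M, encoded by Irak3, lacks kinase activity and is known as a brake in macrophages.

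After LysoPS, 8 of the 10 genes rose, none fell and 2, Irak1 and Irak4, did not pass the test. Over all 19057 genes tested, 25.5% were called, 12.8% higher (2447 genes) and 12.6% lower (2407 genes). A call means an adjusted p under 0.05 in edgeR's quasi-likelihood test with Benjamini-Hochberg adjustment over all tested genes. The count of 8 became 7 without mock replicate 1, where Ly96 lost its call, and 6 without mock replicate 2, where Ly96 and Ticam1 lost theirs. The calls over all genes shrank too, to 1237 higher and 986 lower without mock replicate 1 and to 1161 higher and 1004 lower without mock replicate 2. Of the 10 genes, 5 rose by at least 2-fold, against 4.32% of all tested genes, and the median log2 fold change of the 10 was 0.98, against -0.013 over all tested genes. On the scale of deposited TPM, a level that takes transcript length into account, the median of all tested genes lay at -0.14 and the calls split into 1353 higher and 3088 lower, and the same 8 genes were called higher.

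**Figure D1:**
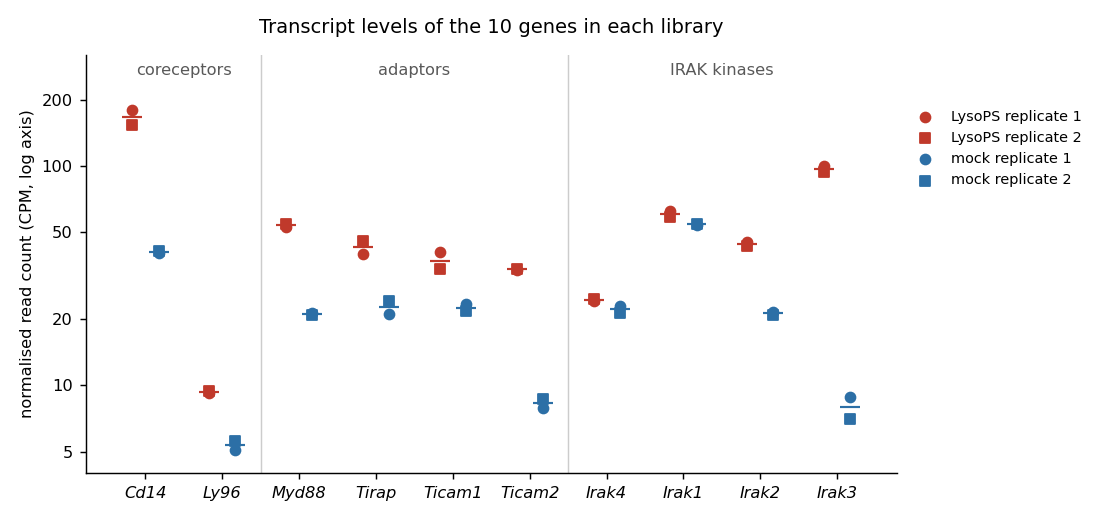
Normalised read counts (CPM, log axis) of the 10 genes in each library, with LysoPS left of mock for each gene and a bar at the mean of 2 libraries. Irak3 stands near 97 CPM in LysoPS libraries and near 8 CPM in mock libraries, while the symbols of Irak1 and Irak4 lie close together.

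The sequences around 3 annotated transcription starts, from members with unlike responses, are shown. Irak3 is shown because it had the largest change, Myd88 because it is the adaptor most of the receptors share, and Irak1 because it did not pass the test. Each run is a RefSeq window (build GRCm38.p6) from 250 bases before to 50 bases after a start, 5′ to 3′ on the gene's strand, and capitals mark a match to a motif searched. The Myd88 and Irak3 runs lie wholly inside their gene spans, which on the minus strand begin at 119341411 and 120202130. The other Irak3 window, 120202081 to 120202380, covers that outer end.
Irak3, chr10:120201548-120201847, minus strand: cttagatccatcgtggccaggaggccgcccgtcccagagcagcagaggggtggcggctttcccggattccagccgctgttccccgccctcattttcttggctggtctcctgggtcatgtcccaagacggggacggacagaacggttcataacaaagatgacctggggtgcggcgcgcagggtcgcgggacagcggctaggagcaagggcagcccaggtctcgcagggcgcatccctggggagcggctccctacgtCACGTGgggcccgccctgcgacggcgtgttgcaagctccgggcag
Myd88, chr9:119339969-119340268, minus strand: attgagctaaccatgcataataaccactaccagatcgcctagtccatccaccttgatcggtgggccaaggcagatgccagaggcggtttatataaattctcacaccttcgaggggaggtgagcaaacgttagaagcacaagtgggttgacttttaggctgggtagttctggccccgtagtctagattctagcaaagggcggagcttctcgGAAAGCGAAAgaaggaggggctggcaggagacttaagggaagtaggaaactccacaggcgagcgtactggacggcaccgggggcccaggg
Irak1, chrX:74023869-74024168, minus strand: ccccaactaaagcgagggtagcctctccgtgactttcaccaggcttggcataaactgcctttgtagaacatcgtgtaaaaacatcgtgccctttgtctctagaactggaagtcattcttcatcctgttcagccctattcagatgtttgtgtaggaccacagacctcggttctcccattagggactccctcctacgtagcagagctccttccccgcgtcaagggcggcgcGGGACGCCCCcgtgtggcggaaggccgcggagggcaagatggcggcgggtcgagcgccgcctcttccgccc

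Windows of 7 of the 10 genes were searched on both strands, 10 windows in all, since Tirap, Irak1 and Irak3 each had a second start. Chromosome 18, which holds Cd14 and Ticam2, was left out of the search, and Ly96 had no window. The motifs were CACGTG (an E-box), GAAANNGAAA (bound by interferon regulatory factors), TGANTCA (AP-1), TGACGTCA (the cyclic AMP response element), GAGGAAG (PU.1) and the kappaB consensus. Within a window, none of the matches overlapped another. The capitals in the Irak3 run are an E-box from 5 to 10 bases after the start base, a motif found in 7.15% of all 32851 windows. Its other window held none of the 6 motifs. The capitals in the Myd88 run are GAAAGCGAAA, from 40 to 31 bases before the start (3.44% of all windows). Those in the Irak1 run are GGGACGCCCC, from 21 to 12 bases before the start, a match to the kappaB consensus (8.46%). The other Irak1 window overlaps this one and holds the same bases, from 18 to 9 before its start. Ticam1 held an E-box and GAGGAAG (13.6%), and the windows of Tirap, Irak4 and Irak2 held no match. A match describes letters in a window, and binding was not measured here.

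Libraries held from 30001098 to 45193959 counts, and correlations of log2 CPM between libraries ran from 0.985 to 0.987 within a group and from 0.953 to 0.963 between groups. The cultures held RNA of several cell types. Of 20 microglia and macrophage markers, 13 rose and 3 fell, none was without counts, and they had a median of 0.46 on the log2 scale and a summed level of 7293 and 6561 CPM in LysoPS libraries against 3944 and 3568 CPM in mock libraries. The most abundant of them was Adgre1, which encodes the macrophage protein F4/80 (log2 fold change 3.57). Of 10 astrocyte markers, 9 fell and none rose, with a median of -0.96 and sums of 5114 and 5840 CPM in LysoPS libraries against 10960 and 9865 CPM in mock libraries, and Gfap (-1.06) and Aqp4 (-0.37) were the most abundant. Of 8 fibroblast markers, 3 fell and none rose (median -0.15, sums of 12030 to 12390 CPM after LysoPS and 14570 to 14710 CPM in mock, most abundant genes Fn1 at -0.59 and Col1a1 at -0.14). Oligodendrocyte markers summed to 317 to 333 CPM in LysoPS libraries and 321 to 337 CPM in mock libraries (4 of 8 higher, 1 lower, median 0.37, most abundant genes Cnp at -0.58 and Olig1 at -0.073). Neuron markers reached 453 to 496 CPM in LysoPS libraries and 406 to 409 CPM in mock libraries (1 of 6 higher, median 0.16, most abundant genes Dcx at 0.15 and Tubb3 at 0.11). Endothelial markers reached 165 to 190 CPM in LysoPS libraries and 335 to 342 CPM in mock libraries (2 of 5 tested lower, median -0.93, most abundant genes Cdh5 at -0.93 and Kdr at -1.45). Most of that sum was Cdh5 alone, with 147 and 170 CPM after LysoPS and 306 and 296 CPM in mock. In 1 endothelial marker both LysoPS libraries lay above both mock libraries, without a call. Neutrophil markers were near 0: 4 of 6 had no count in any library, 1 of the 2 tested was called higher, and the sum, from S100a8 and Camp, was 2.48 and 1.10 CPM in LysoPS libraries and 0 and 0.139 CPM in mock libraries. The part that shifts between cell types have in the results below was not tested, and in bulk RNA fewer cells of a type and less RNA per cell cannot be told apart.

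Both coreceptors rose, Cd14 with a log2 fold change of 2.03 and Ly96 with one of 0.81. Cd14 (ENSMUSG00000051439, GRCm38 chromosome 18, 36725074 to 36726736, minus strand) encodes the anchored surface protein that hands lipopolysaccharide to TLR4. It stood at 180 and 154 CPM in LysoPS libraries, against 40.2 and 41.2 CPM in mock libraries. The lowest LysoPS value was more than 3 times the highest mock value, and the 2 mock libraries nearly coincided. The log2 fold change was 2.03 ± 0.10 (SE, 2 libraries per group, adjusted p = 0.000536), with a 95% interval from 1.78 to 2.29. Ly96 (ENSMUSG00000025779, chromosome 1, 16688051 to 16709611, plus strand) encodes MD-2, the partner of TLR4 that holds the lipid. It was the member with the fewest counts, 310 and 414 in LysoPS libraries and 157 and 242 in mock libraries. Its levels were 9.26 and 9.47 CPM after LysoPS, against 5.10 and 5.60 CPM in mock, without overlap. The log2 fold change of Ly96 was 0.81 ± 0.13 (adjusted p = 0.0113). Without mock replicate 1 it was 0.74 (adjusted p = 0.0725) and without mock replicate 2 it was 0.88 (adjusted p = 0.0522).

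Per transcript length, Cd14 exceeded Ly96 by 7.45 and 6.52 times in TPM in LysoPS libraries, against 3.18 and 2.91 times in mock libraries. The receptor that both serve, Tlr4, did not pass the test (log2 fold change -0.57 ± 0.77, adjusted p = 0.625). Its libraries disagreed within each group, with 10.4 and 6.68 CPM after LysoPS and 21.6 and 3.86 CPM in mock, so a change of Tlr4 was not measurable here.

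All 4 adaptors rose, with log2 fold changes from 0.71 for Ticam1 to 2.02 for Ticam2. Ticam2 (ENSMUSG00000056130, chromosome 18, 46559155 to 46574533, minus strand), which encodes TRAM, stood at 33.5 and 34.0 CPM in LysoPS libraries, against 7.92 and 8.65 CPM in mock libraries. Replicates lay within 1 CPM of each other in both groups. Its log2 fold change was 2.02 ± 0.10 (adjusted p = 0.00054). Ticam1 (ENSMUSG00000047123, chromosome 17, 56269319 to 56276786, minus strand), which encodes TRIF itself, had 40.3 and 33.8 CPM after LysoPS and 23.4 and 21.9 CPM in mock. The groups did not overlap, but the LysoPS replicates were further apart from each other than those of Ticam2. The log2 fold change of Ticam1 was 0.71 ± 0.12 (adjusted p = 0.0131), and without mock replicate 2 it was 0.66 with an adjusted p of 0.0661.

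Myd88 (ENSMUSG00000032508, chromosome 9, 119335934 to 119341411, minus strand), the adaptor of nearly all Toll-like receptors and of the interleukin-1 receptors, stood at 52.8 and 54.6 CPM in LysoPS libraries and 21.4 and 20.9 CPM in mock libraries. Both groups were tight and far apart, and the log2 fold change was 1.35 ± 0.08 (adjusted p = 0.000793). Tirap (ENSMUSG00000032041, chromosome 9, 35184551 to 35200291, minus strand), which carries TLR2 and TLR4 to MyD88, had 39.7 and 45.4 CPM after LysoPS and 21.2 and 24.2 CPM in mock. In both groups replicate 2 was the higher library, and the groups did not overlap. Tirap rose by a log2 fold change of 0.91 ± 0.11 (adjusted p = 0.00619). The transcript length that its counts and FPKM together imply varied by 1.21 times between libraries, the widest variation among the 10 genes, and whether reads were assigned to different Tirap transcripts was not tested.

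The adaptor pool grew in TPM, and the shares of its members shifted. The 4 adaptors summed to 131 and 132 TPM in LysoPS libraries, against 61.4 and 62.3 TPM in mock libraries. The share of Ticam2 in that sum was 20.5% and 21.7% after LysoPS and 11.8% and 13.0% in mock. Ticam1 moved the other way, with 19.2% and 16.8% after LysoPS and 27.2% and 25.7% in mock. TRAM transcripts thus stood at 1.07 and 1.29 times the TPM of TRIF transcripts in LysoPS libraries, against 0.432 and 0.507 times in mock libraries. Myd88 remained the most abundant adaptor, with a share of 40.8% ± 0.40 in LysoPS libraries and 37.5% ± 0.39 in mock libraries (SD, n = 2 each). Tirap took 20.1% ± 1.23 after LysoPS and 23.6% ± 0.55 in mock. No test was made of these shares, since 2 libraries against 2 give an exact permutation p no lower than 0.333.

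**Figure D2:**
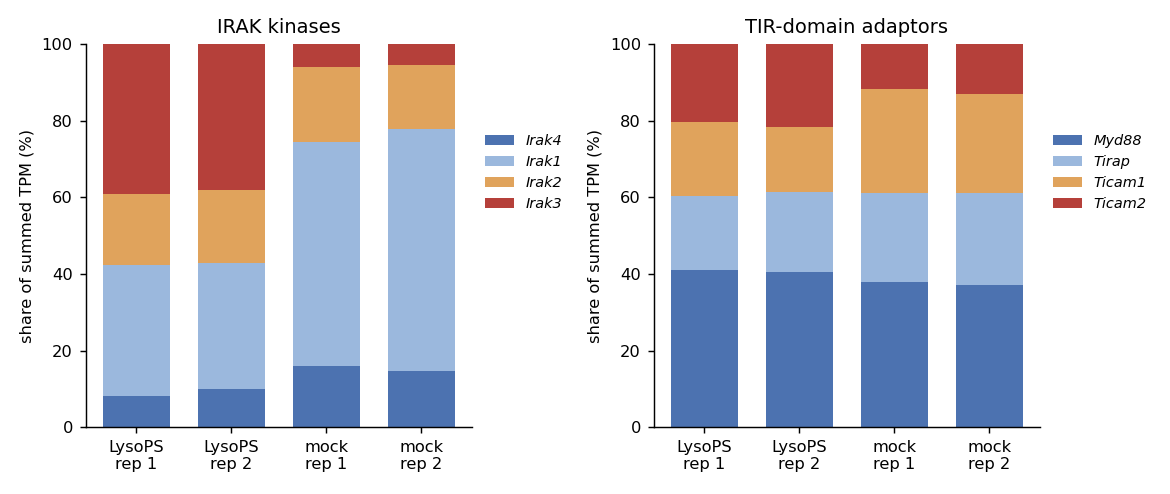
Share (%) of each gene in the summed TPM of the 4 IRAK genes (left) and of the 4 adaptors (right), 1 bar per library with LysoPS left of mock. Irak3 takes 38.1% to 39.0% of the IRAK sum after LysoPS and 5.57% to 6.00% in mock, and the adaptor bars differ less.

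The IRAK kinases split into a pair that rose and a pair that did not pass the test. Irak3 (ENSMUSG00000020227, chromosome 10, 120141648 to 120202130, minus strand) had the largest change of the 10 genes. It held 3333 and 4100 counts, or 99.6 and 93.8 CPM, in LysoPS libraries, and 274 and 304 counts, or 8.89 and 7.03 CPM, in mock libraries. The LysoPS replicates lay within a few CPM of each other, and every LysoPS value was more than 10 times every mock value. Its log2 fold change was 3.61 ± 0.14 (adjusted p = 0.000366), a fold of 12.2 with a 95% interval from 9.54 to 15.6. By log2 fold change it was gene 124 of the 19057 tested. Irak2 (ENSMUSG00000060477, chromosome 6, 113638467 to 113695026, plus strand), known for sustaining signalling late in the response, stood at 44.8 and 43.2 CPM after LysoPS and 21.6 and 21.04 CPM in mock. Replicates of each group nearly coincided. The log2 fold change of Irak2 was 1.05 ± 0.08 (adjusted p = 0.00167).

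Irak1 (ENSMUSG00000031392, chromosome X, 74013914 to 74023918, minus strand) encodes the kinase that IRAK4 phosphorylates. It had 62.5 and 58.5 CPM in LysoPS libraries and 53.8 and 54.4 CPM in mock libraries. On the CPM scale the groups did not touch, yet the log2 fold change was only 0.16 ± 0.08 (adjusted p = 0.184), with a 95% interval from -0.032 to 0.36. In deposited TPM the groups of Irak1 overlapped, at 62.3 and 61.6 TPM after LysoPS and 60.1 and 67.9 TPM in mock. There the difference was -0.0445 on the log2(TPM + 1) scale, or 0.096 relative to the median of all tested genes. Irak4 (ENSMUSG00000059883, chromosome 15, 94543643 to 94581815, plus strand), the kinase that starts the cascade, had 24.1 and 24.6 CPM in LysoPS libraries and 23.1 and 21.4 CPM in mock libraries. Its log2 fold change was 0.13 ± 0.09 (adjusted p = 0.334), and its 95% interval from -0.099 to 0.37 leaves room for a rise of up to 1.29-fold. For Irak1 the same limit was 1.28-fold. All 10 genes, these included, had both LysoPS libraries above both mock libraries in CPM, which 32.5% of tested genes also had.

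**Figure D3:**
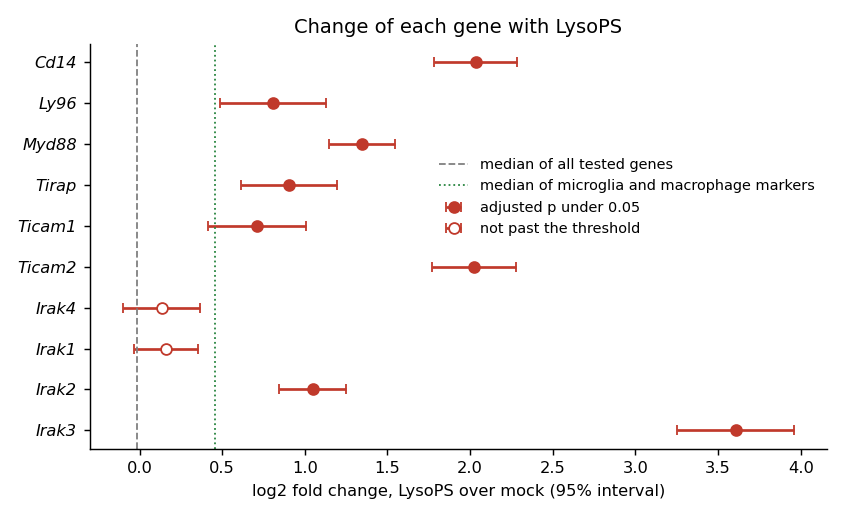
Log2 fold change (LysoPS over mock) of each gene with its 95% interval, filled where the adjusted p was under 0.05. The dashed line is the median of all tested genes (-0.013) and the dotted line that of the microglia and macrophage markers (0.46); the intervals of Irak1 and Irak4 include 0.

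Levels per transcript length put the kinases in a different order in each group. In LysoPS libraries the order of mean TPM was Irak3 (71.3 ± 0.49), Irak1 (61.9 ± 0.53), Irak2 (34.9 ± 0.67) and Irak4 (16.9 ± 2.35), and in mock libraries it was Irak1 (64.0 ± 5.52), Irak2 (19.1 ± 1.59), Irak4 (16.2 ± 0.58) and Irak3 (6.09 ± 0.14), each with its SD over 2 libraries. The brake thus had the highest kinase transcript level after LysoPS and the lowest in mock. For every Irak4 transcript there were 4.70 and 3.82 Irak3 transcripts in TPM in LysoPS libraries, against 0.373 and 0.380 in mock libraries. Against Irak1 the ratio of Irak3 was 1.15 and 1.15 after LysoPS and 0.103 and 0.0882 in mock. The ratio of Irak1 to Irak4 overlapped between the groups, at 4.09 and 3.31 in LysoPS libraries and 3.63 and 4.31 in mock libraries. Such TPM values also depend on the implied transcript length. Between libraries it varied by 1.183 times for Irak3, 1.145 for Irak4, 1.137 for Irak2 and 1.079 for Irak1. Summed over the 4 genes the level was 184 and 187 TPM after LysoPS and 103 and 108 TPM in mock. The share of Irak1 in that sum was 33.5% ± 0.65 after LysoPS and 60.7% ± 3.39 in mock, while that of Irak2 was 18.9% ± 0.16 after LysoPS and 18.1% ± 2.06 in mock, a difference smaller than the mock spread.

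Over all 10 genes, Cd14 was the most abundant per length in LysoPS libraries (203 ± 15.2 TPM) and Irak4 the least. In that group only the neighbours Ticam2 and Tirap overlapped over their 2 libraries. In mock libraries Irak1 stood first, Cd14 second (56.1 ± 2.05 TPM) and Irak3 last, and the neighbours Irak2 and Ly96, and Ticam1 and Irak4, overlapped. Myd88 transcripts numbered 3.54 and 2.88 per Irak4 transcript in LysoPS libraries, against 1.40 and 1.47 in mock libraries.

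Some of these genes share exon sequence with a neighbour in the GENCODE M21 annotation, and no label says if counting used strand. Ticam2 shares 838 exon bases (14.5% of its own) with Tmed7, a trafficking gene on the same strand, and Myd88 shares 290 (11.3%) with Acaa1a on the opposite strand. On the minus strand, the span of Ticam2 begins at 46574533 in both models. It ends at 46557291 in that annotation and at 46559155 in the counted model, whose own overlap was not measured. Tmed7 stood at 204 and 238 CPM after LysoPS and 174 and 200 CPM in mock (log2 fold change 0.25, adjusted p = 0.165), and Acaa1a at 65.2 and 54.4 CPM after LysoPS and 50.9 and 45.5 CPM in mock (0.31, adjusted p = 0.118). Neither neighbour passed the test. Irak4 shares 395 exon bases (7.87%) with Twf1 on the opposite strand, which rose by 0.34 (adjusted p = 0.0188). Irak3 shares 192 (5.22%) with Tmbim4, at 0.34 (adjusted p = 0.0565).

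Other genes of the pathway were read list by list, beside 12.8% of all tested genes called higher and 12.6% called lower. Among 11 tested Toll-like receptors, 4 rose, none fell and 7 did not pass, and their median log2 fold change was 0.25. The smallest p-values among the risers were those of the lipoprotein receptor Tlr2 (3.03 ± 0.07), its partner Tlr1 (3.40 ± 0.19) and the DNA sensor Tlr9 (1.52 ± 0.12). Of 8 accessory and trafficking genes, 5 rose and 1 fell, with a median of 0.42. Unc93b1, which carries nucleic acid sensors to endosomes, rose by 1.47 ± 0.08, the TLR4-like Cd180 by 1.08 ± 0.07 and the scavenger receptor Cd36 by 0.98 ± 0.07, and Tril, an accessory protein of TLR3 and TLR4, fell by 0.58 ± 0.09 on the log2 scale.

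Downstream of MyD88, 4 of 17 genes rose, 1 fell and 12 did not pass, with a median of 0.18. Over all tested genes 25.5% were called in either direction, a share close to that of these 17 genes. Those with the smallest p-values were Pik3ap1, a TIR-domain adaptor to PI3-kinase (2.37 ± 0.07), the kinase Map3k8 (2.08 ± 0.13) and the ubiquitin enzyme variant Ube2v1 (0.87 ± 0.11, implied length varying by 1.62 times between libraries), and the ubiquitin ligase Peli2 fell by 0.65 ± 0.11. Downstream of TRIF, 5 of 12 rose and none fell, with a median of 0.35, and by p-value the first were the kinase Ikbke (2.37 ± 0.09), its scaffold Tank (0.83 ± 0.08) and the transcription factor Irf7 (1.90 ± 0.23, implied length varying by 1.51 times). Of 11 inhibitors other than Irak3, 5 rose and none fell, with a median of 0.48, and by p-value the first were the ubiquitin binder Tnip1 (1.85 ± 0.09), Trafd1 (0.48 ± 0.08) and the ubiquitin editor Tnfaip3, or A20 (1.75 ± 0.29). The 5 include Il1rl1, itself of the interleukin-1 receptor family and counted only here. It stood at 2.87 and 3.20 CPM after LysoPS and 0.876 and 1.43 CPM in mock, with an implied length varying by 2.24 times. Of 5 tested interleukin-1 family receptors, 3 rose and none fell, with a median of 0.90, namely Il1r1 (1.45 ± 0.08), its partner chain Il1rap (0.90 ± 0.07) and the interleukin-36 receptor Il1rl2 (0.56 ± 0.08). Each of these genes had an adjusted p under 0.05 in edgeR's quasi-likelihood test, from 0.000248 for Tlr2 to 0.0256 for Il1rl1. The lists' medians lay between 0.18 and 0.90, against 0.98 for the 10 genes and 0.46 for the microglia and macrophage markers, and differences between lists were not tested.

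**Figure D4:**
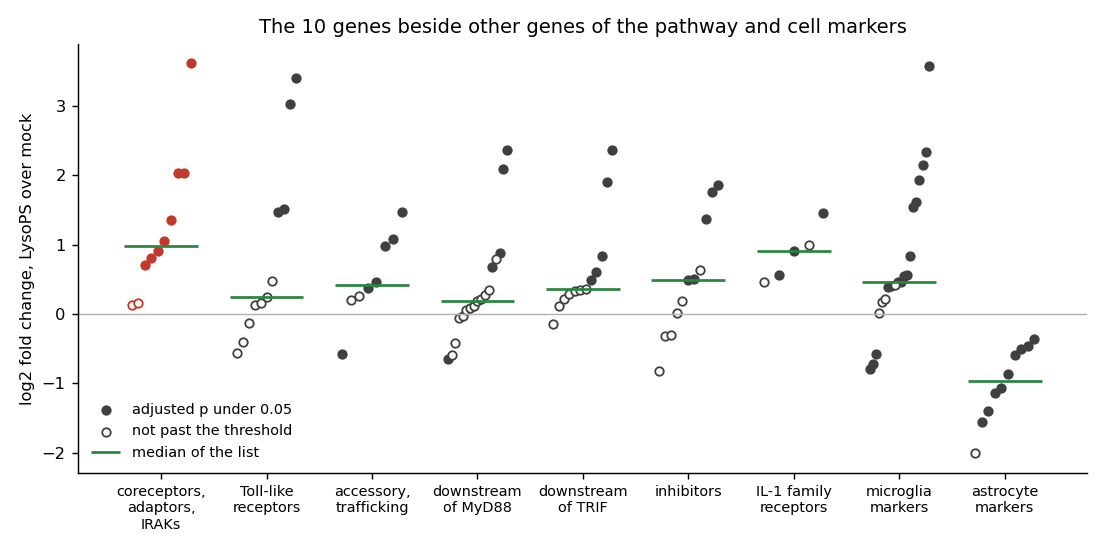
Log2 fold change (LysoPS over mock) of every tested gene in the lists of the pathway and in the microglia and astrocyte markers, filled where the adjusted p was under 0.05, with a line at each list's median. The 10 coreceptor, adaptor and IRAK genes lie between 0.13 and 3.61, and 9 of the 10 astrocyte markers are called lower.

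The direction of the 8 risers held under each of the 11 alternatives that were run. Over these the log2 fold change of Irak3 ran from 3.35 to 3.78, that of Cd14 from 1.84 to 2.14, that of Ticam2 from 1.73 to 2.09 and that of Myd88 from 1.18 to 1.37. Irak2 ran from 0.84 to 1.08 and Tirap from 0.81 to 1.00. Ly96 ran from 0.63 to 0.88 and Ticam1 from 0.51 to 0.84. Irak4 ran from 0.056 to 0.19 and was called under none of the 11, with adjusted p-values from 0.294 to 0.781, and Irak1 was likewise never called (0.135 to 0.734).

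**Figure D5:**
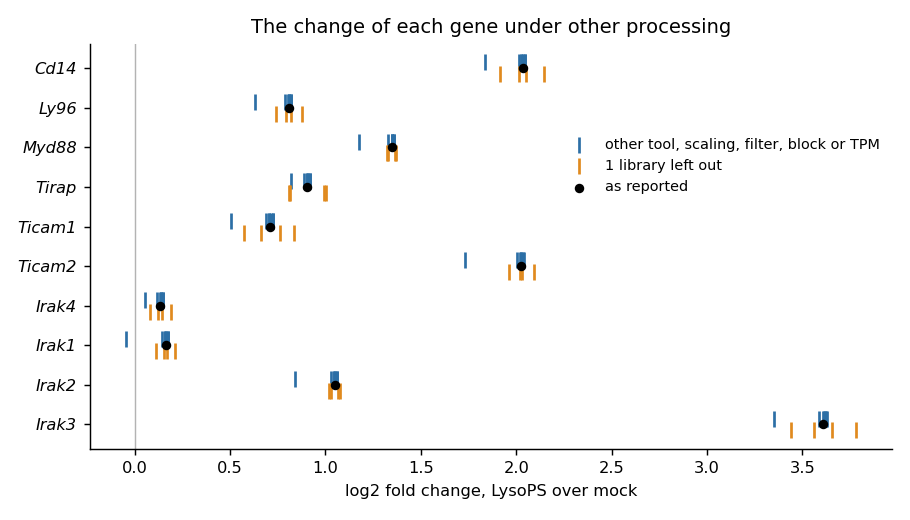
Log2 fold change (LysoPS over mock) of each gene as reported (black) and under 11 alternatives, with other tools, scalings, filters, the block and TPM in blue and the removal of 1 library in orange. Irak1 is the 1 gene with a mark below 0, at -0.0445 with deposited TPM.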

How the data were processed

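Per the submitters' processing notes, FastQC 0.11.2, Trimmomatic 0.36, HISAT2 and StringTie were used with build GRCm38; the notes name no annotation release, strand setting or counting program. Per the labels' protocols, poly-T beads selected the mRNA and sequencing was paired-end. Per the file headers, the authors' table gives a raw count, a TPM and an FPKM value per gene and library. The protocol text speaks of 1 treated replicate, while 2 samples are labelled LysoPS, and the sample labels were followed.

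Deposited counts were tested with edgeR 4.0.16 in R 4.3.3 by a two-sided quasi-likelihood F test. Settings were filterByExpr with a minimum count of 10 and TMM factors from 0.966 to 1.04. Each gene had 2 residual degrees of freedom, to which the test adds those borrowed across genes. The fit was also run on simulated data, from which no conclusion is drawn here. CPM uses TMM-scaled library sizes. SEs come from the fit's F statistic, and 95% intervals also use its total degrees of freedom. Deposited TPM served levels and shares, and deposited FPKM implied lengths. Alternatives were DESeq2 1.42.0, its size factors, limma-voom (limma 3.58.1), log2(TPM + 1), 2 other filters, a replicate block and each library left out.

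Gene lists were written by hand. All 10 genes are named, with up to 3 called genes with the smallest p per direction of each pathway list, Tlr2, Tlr4 and the 2 most abundant genes of each marker list; 1 gene that this rule takes is not reported here. Members and lists were chosen with earlier results of these data known. Neighbours and motifs were chosen after values were seen.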

Additional observations from a re-analysis of the deposited data

How the results depend on the processing

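The count of called members was 8 under each of DESeq2, DESeq2 size factors, limma-voom, deposited TPM, no filter, a filter of 5 CPM in 2 libraries and the replicate block. Leaving out each library gave 6 to 8 members and 2165 to 5356 called genes in the whole table, against 4854; a library left alone in its group was assumed to vary like the other group. Of 110 member values under alternatives, 106 kept their direction and side of the threshold. The exceptions were Ly96 without either mock library, Ticam1 without mock replicate 2, and Irak1, which stood at -0.0445 with deposited TPM. With the replicate block 5433 genes were called. Same-numbered libraries deviated with a correlation of 0.0775 across genes, and the labels do not pair them. With FPKM the shares are those of TPM by construction, and with 2 libraries a group leaving one out cannot move a share by more than the replicate spread, so neither bears on how stable the 8 shares are. The small shift in the share of Irak2 (LysoPS minus mock, 0.742 points) changed sign, to -0.66 points with counts not divided by length and -0.714 without mock replicate 2, and was 2.2 without mock replicate 1. With counts not divided by length the shift became -10.2 points for Irak4, 35.3 for Irak3, 3.89 for Myd88 and -4.89 for Tirap, against -6.23, 32.8, 3.28 and -3.49 with TPM. Ticam1 and Ly96 had the smallest changes of the 8 called members, and Ly96 the fewest counts.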
